A study of Mus musculus with 26 samples.

Results

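The genes described here are 8 carriers of organic anions and cations that were measured by RNA sequencing of mouse liver: Slc22a5, Slc22a7, Slc22a26, Slc22a27, Slc22a28, Slc22a29, Slc22a30 and Slc47a1. They were found by symbol among 47643 genes, and all 8 had a row in the count table. The study, whose title concerns drug metabolism in cholestasis (impaired flow of bile), holds 26 libraries in 10 groups that form 5 comparisons. Wild type C57BL/6J mice of 8 weeks, fed ad libitum, received corn oil or TCPOBOP, a chemical that activates the receptor CAR (whole liver, 2 libraries each). For TCPOBOP the labels give both 36 h and 6 h after injection. Wild type C57BL/6J mice of 12 weeks were compared with Fxr-/- Shp-/- mice of the same strain, age and feeding, which lack in every tissue both Fxr, the receptor for bile acids encoded by Nr1h4, and Shp, a transcriptional repressor encoded by Nr0b2 (whole liver, 3 libraries each). C3H/HeN mice of 8 to 10 weeks, fed ad libitum, were taken at 48 h after partial hepatectomy or at 0 h after sham surgery (whole liver, 3 libraries each). The labels name no genotype for these mice. Hepatocytes came from wild type C57BL/6J mice of 16 weeks after a 10 h fast, on chow or on a 60% high fat diet (2 libraries each). Floxed mice (fl/fl Fxr fl/fl Shp, C57BL/6J, 10 to 12 weeks, fasted for 8 to 10 h) ate chow or a diet with cholic acid, a primary bile acid (whole liver, 3 libraries each). Both floxed groups carry the floxed alleles, and the labels name no Cre. The sex of the mice is not stated in the labels used here.

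The Slc22 family belongs to the major facilitator superfamily and moves organic anions, organic cations and zwitterions such as carnitine across the plasma membrane. In the liver its members sit mainly on the blood-facing side of the hepatocyte, while Slc47a1 (MATE1) passes organic cations into bile in exchange for protons. Rodents carry an expanded cluster of Slc22 genes related to the organic anion transporters, whose substrates are less well known. Many liver genes of the mouse differ between males and females under the control of pituitary growth hormone.

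Gene counts per library ranged from 13949059 to 70367874, and 3 counts corresponded to 0.0450 to 0.222 CPM. CPM is the library-size-normalised read count, scaled by TMM over all 26 libraries. The table's line for reads with more than 1 alignment held 43.2% to 44.1% of reads in the wild type libraries and 25.5% to 26.9% in the knockout libraries. In the other 20 libraries it held 16.6% to 25.1%. Nr0b2 measured 13.3 to 26.9 CPM in wild type and 0.563 to 1.60 CPM in knockout libraries. Nr1h4 measured 114 to 153 CPM in wild type and 52.9 to 61.6 CPM in knockout libraries; which exons the reads came from was not analysed here. Cyp2b10, the classic CAR target, stood at 3421 and 2977 CPM with TCPOBOP. The library labelled corn oil 2 had 10.0 CPM of it, but the library labelled corn oil 1 had 3673 CPM. This control library goes against its label. Values of that comparison are given below as measured, and no effect of TCPOBOP is drawn from them. Hepatocyte markers (6 genes) summed to at least 43932 CPM in every library. In the hepatocyte preparations, summed markers of endothelial cells were 37.9 to 39.8 CPM on chow and 94.7 to 97.8 CPM on the high fat diet, and those of stellate cells 4.41 to 8.31 and 21.8 to 23.5 CPM. Markers of kidney proximal tubule, where many Slc22 genes are also expressed, summed to at most 2.21 CPM in any library. Fewer cells of a type and less RNA per cell cannot be told apart in these bulk libraries. Nothing in the labels says that replicates came from separate animals, so p-values measure the spread between these libraries.

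In GENCODE M21 (GRCm38) all 8 genes are protein coding, lie on the minus strand and share no exon base with another gene. Slc22a5 lies at chr11:53864542-53891660, Slc47a1 at chr11:61343401-61378345 and Slc22a7 at chr17:46432183-46438457. The other 5 stand side by side on chromosome 19: Slc22a26 at chr19:7781041-7802667, Slc22a27 at chr19:7864388-7966027, Slc22a28 at chr19:8062209-8131982, Slc22a29 at chr19:8160165-8218900 and Slc22a30 at chr19:8335371-8405111. They span 624 kb, and no other protein-coding gene lies inside that span. Their coding sequences fall into pairs. Slc22a28 and Slc22a30 share 1639 of 1659 aligned coding bases (98.8%), and Slc22a27 and Slc22a29 share 1611 of 1656 (97.3%). Across these 2 pairs identity is 92.0% to 92.7%, and Slc22a26 is 76.1% to 77.4% identical to the other 4. Of the 50-base stretches of their transcripts, 53.9% in Slc22a28, 34.3% in Slc22a30, 29.9% in Slc22a27 and 28.7% in Slc22a29 also occur in another gene, mostly in the pair partner. The share is 26.3% in Slc22a5 (nearly all in Slc22a21), 6.21% in Slc22a26 and 0 in Slc22a7 and Slc47a1. A read that lies wholly within a shared stretch may not be assignable to 1 gene, so the single values of the paired genes are uncertain; the read length is not given in the sources used here.

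The start regions of 6 of the 8 members, 250 bases before to 50 bases after the gene's start, were found in the RefSeq promoter table (GRCm38.p6). Those of Slc22a28, Slc22a30 and Slc22a29 are shown because the first 2 moved together in the results below while the third moved the other way. All are on the minus strand, written 5′ to 3′: Slc22a28 at chr19:8131933-8132232, Slc22a30 at chr19:8405056-8405355 and Slc22a29 at chr19:8218851-8219150. Capitals mark bases not aligned to an identical base, for Slc22a28 against Slc22a30, for Slc22a30 against Slc22a28, and for Slc22a29 against Slc22a28.
Slc22a28: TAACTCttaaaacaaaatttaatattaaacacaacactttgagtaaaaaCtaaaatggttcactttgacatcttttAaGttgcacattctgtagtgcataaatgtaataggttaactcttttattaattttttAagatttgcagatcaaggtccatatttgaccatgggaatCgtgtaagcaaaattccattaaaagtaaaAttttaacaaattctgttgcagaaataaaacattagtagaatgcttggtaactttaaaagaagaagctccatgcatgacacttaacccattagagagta
Slc22a30: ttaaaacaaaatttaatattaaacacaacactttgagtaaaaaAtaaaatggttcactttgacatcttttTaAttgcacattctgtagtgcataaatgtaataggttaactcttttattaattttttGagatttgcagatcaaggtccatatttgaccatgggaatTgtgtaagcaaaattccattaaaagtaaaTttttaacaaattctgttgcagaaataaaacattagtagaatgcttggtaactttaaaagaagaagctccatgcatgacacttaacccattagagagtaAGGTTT
Slc22a29: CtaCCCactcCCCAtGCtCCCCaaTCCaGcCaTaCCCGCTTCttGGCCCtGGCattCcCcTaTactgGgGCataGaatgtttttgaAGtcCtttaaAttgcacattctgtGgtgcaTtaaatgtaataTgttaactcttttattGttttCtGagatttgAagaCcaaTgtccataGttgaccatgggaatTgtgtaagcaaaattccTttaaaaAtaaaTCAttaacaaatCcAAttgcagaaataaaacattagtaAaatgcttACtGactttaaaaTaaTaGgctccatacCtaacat
Slc22a28 and Slc22a30 shared 288 of 294 aligned bases, and Slc22a28 and Slc22a29 shared 225 of 269. Slc22a27, the coding partner of Slc22a29, shared 172 of 257 aligned bases with it. Motifs were searched on both strands. TTCNNNGAA, bound by STAT5 and BCL6, had 1 match, in Slc22a26 (position -141 from the gene's start), and occurs in 8.47% of 27025 start regions of this length. AGGTCA, the core element of nuclear receptor sites, had 1 match in Slc22a27 (position -119) and occurs in 16.0%. GTTAAT, part of the HNF1 site, had 1 match in Slc22a29 (position -29) and occurs in 7.20%. Pairs of AGGTCA as an inverted repeat 1 base apart, or as a direct repeat 1 or 4 bases apart, each of which contains the single AGGTCA, had 0 matches in these 6 and occur in 0.0111%, 0.0444% and 0.0111% of start regions.

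Per kilobase of exon, Slc22a30 was the most abundant of the 8 in 4 of the 5 control groups. It measured 51.4 CPM per kb with corn oil, 49.9 in sham liver, 55.9 in chow hepatocytes and 49.1 in floxed chow liver. In the wild type group of the knockout experiment Slc47a1 was first at 15.1 ± 1.28 CPM per kb, next to Slc22a30 at 13.2 ± 2.33 (SD, n = 3), and the 2 did not differ beyond their spread. Slc22a26, Slc22a27 and Slc22a29 were the lowest, from 0.00852 CPM per kb (Slc22a27 in chow hepatocytes) to 1.40 CPM per kb (Slc22a27 with corn oil). Over all 26 libraries Slc22a5 ranged from 9.52 to 68.2 CPM, Slc47a1 from 33.8 to 186 CPM and Slc22a30 from 8.51 to 194 CPM. Slc22a7 ranged from 0.265 to 155 CPM. Slc22a28 (0 to 22.1 CPM), Slc22a29 (0 to 8.38 CPM) and Slc22a27 (0 to 17.3 CPM) each had 1 library with no read, and Slc22a26 ranged from 0.0387 to 30.6 CPM.

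The wild type libraries of the knockout experiment stood apart from the other controls for several members. Slc22a28 measured 0.602 to 0.941 CPM there and 7.18 to 22.1 CPM in the other 10 control libraries. For Slc22a30 the values were 36.2 to 51.8 CPM against 137 to 194 CPM, and for Slc22a7 5.06 to 6.35 CPM against 14.6 to 97.5 CPM. Strain, genotype, age, feeding, tissue or corn oil treatment also differed between the experiments. The corn oil group, also wild type C57BL/6J whole liver but 8 weeks old, had means of 20.2 CPM (Slc22a28), 173 CPM (Slc22a30) and 18.3 CPM (Slc22a7). The wild type libraries of the knockout experiment had the largest share of reads with more than 1 alignment. The part of these differences in the levels was not tested.

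**Figure D1:**
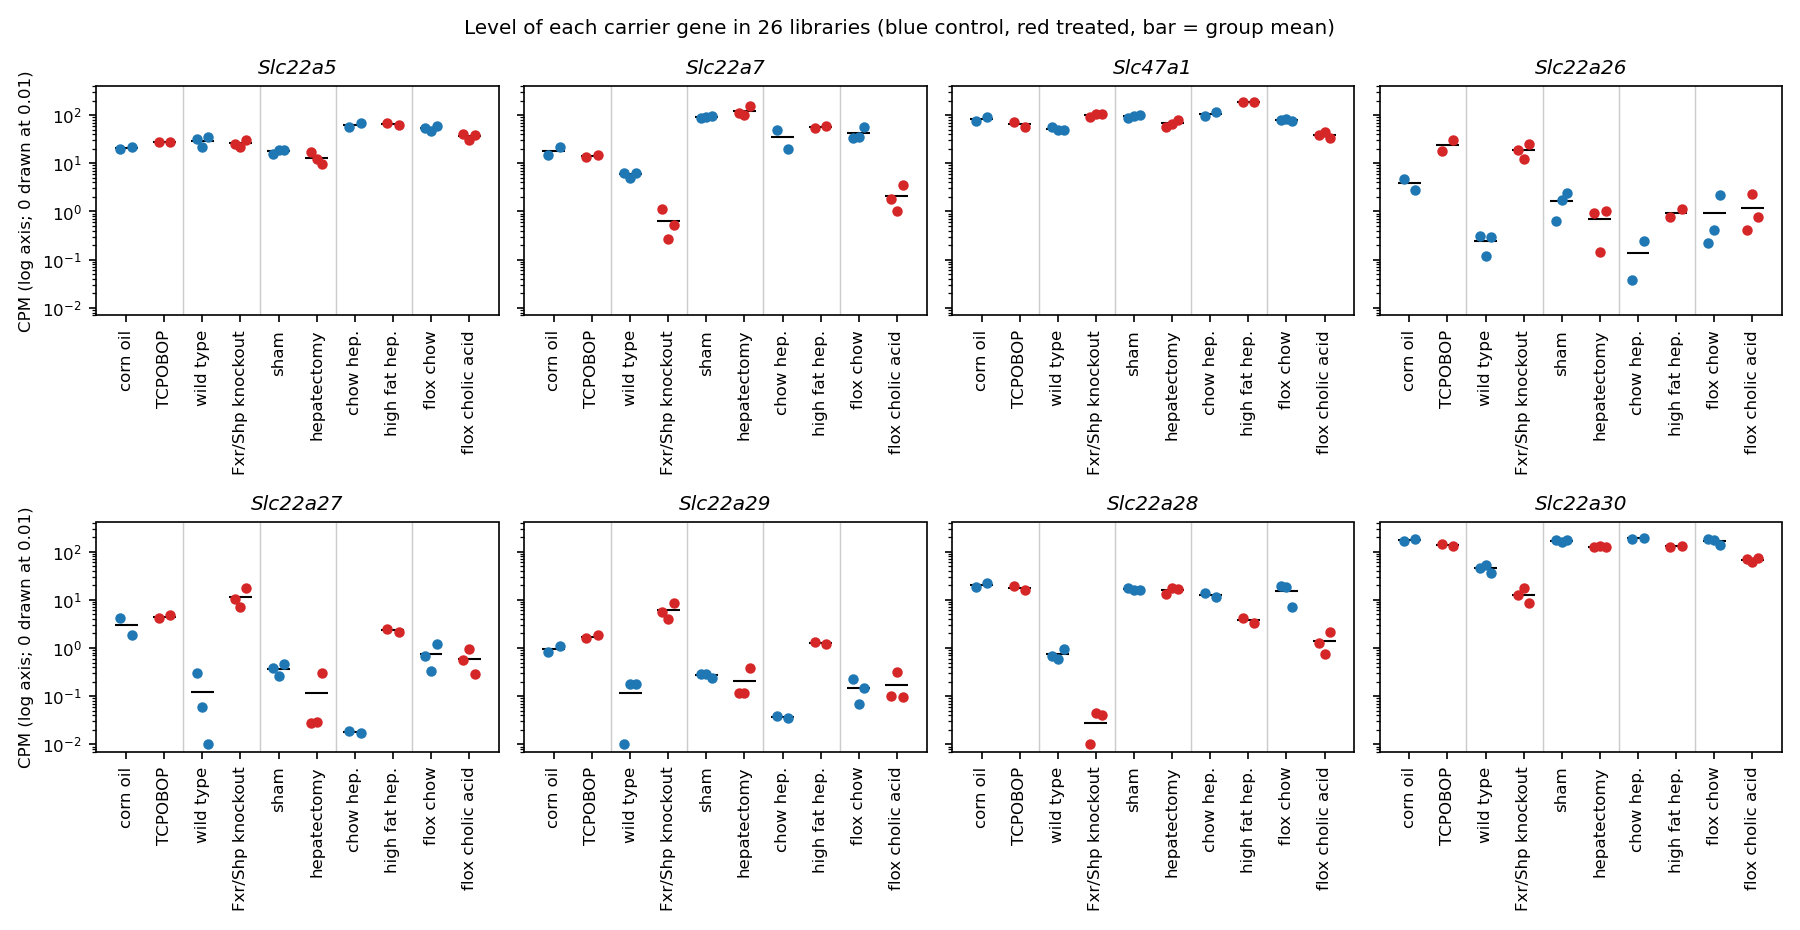
Level of each of the 8 carriers in every library, in CPM on a log axis, by group (blue control, red treated, black bar the group mean, and a level of 0 drawn at 0.01). Slc22a26, Slc22a27 and Slc22a29 lie near the bottom in wild type liver and high in the knockout. Slc22a28 and Slc22a30 lie lower in the knockout than in wild type liver, where they already lie below the other control groups.

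Calls were made with edgeR's quasi-likelihood F test at a Benjamini-Hochberg adjusted p under 0.05 over all genes tested. In the knockout, 7 of 8 carriers tested changed, 4 raised and 3 lowered, where 40.4% of 13473 genes were called (21% raised, 19.4% lowered). After hepatectomy 2 of 7 tested fell and 0 rose, where 30.7% of 13753 genes were called (16.4% raised, 14.3% lowered). On the high fat diet 6 of 8 changed, 4 raised and 2 lowered, where 24% of 13892 genes were called (12.9% raised, 11.1% lowered). On cholic acid 4 of 7 tested fell and 0 rose, where 4.77% of 12577 genes were called (2.27% raised, 2.5% lowered). With TCPOBOP 0 of 8 passed, where 0% of 12785 genes were called (0% raised, 0% lowered). Slc22a26, Slc22a27 and Slc22a29 passed the filter on low counts in the knockout and high fat comparisons through the treated libraries, and Slc22a28 passed it in the knockout comparison through the wild type libraries (10 to 16 counts each, against 0 or 1 in the knockout). These calls therefore carry no weight as a share of members. With a mean count of at least 10 as the filter, Slc22a28 was not tested in the knockout comparison and 6 carriers were called. Slc22a29 did not pass it in the hepatectomy and cholic acid comparisons, where its libraries held 1 to 14 counts. Where a library of a 2-library group was left out, the remaining library was assumed to vary like the other groups in the fit.

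**Figure D2:**
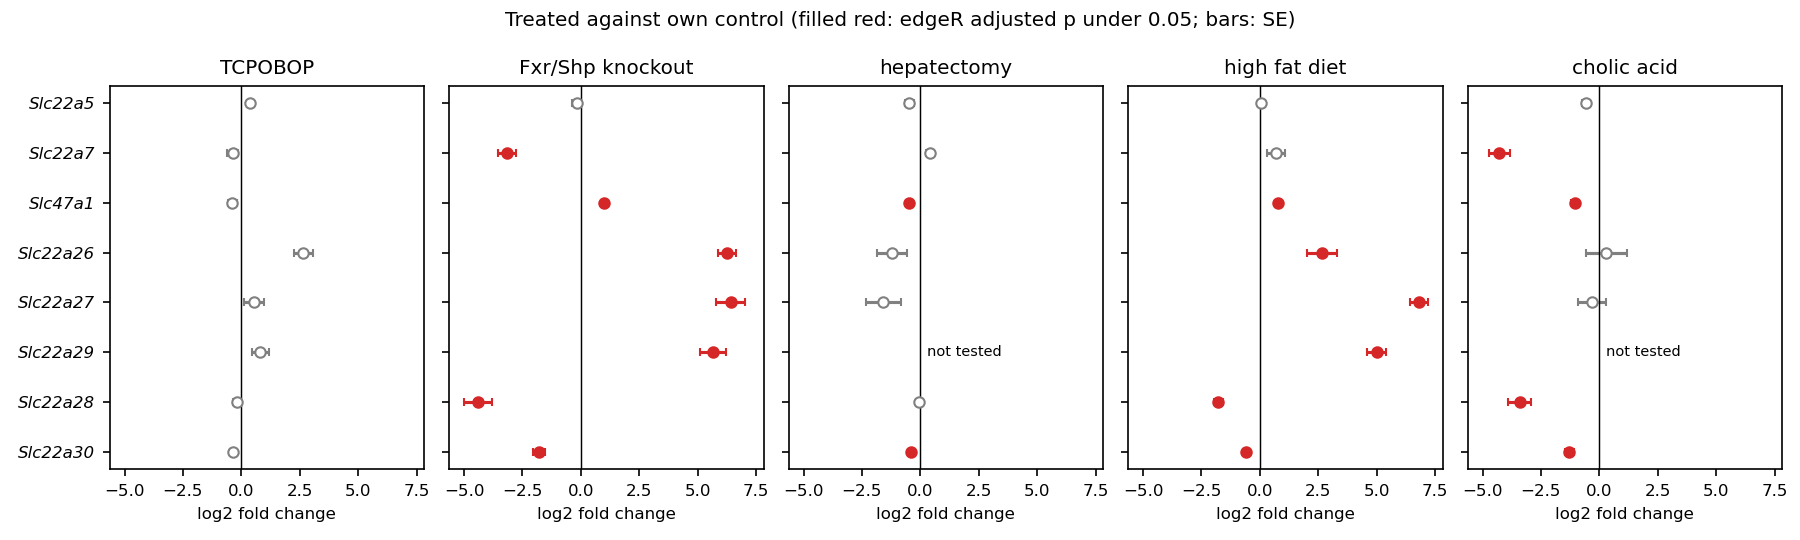
log2 fold change of each carrier, treated against its own control, with its standard error, in the 5 comparisons; filled red points passed edgeR's test at an adjusted p under 0.05. Slc22a7, Slc22a28 and Slc22a30 fell in both the knockout and the cholic acid comparison, whereas Slc47a1 rose in the first and fell in the second.

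Slc22a5 (OCTN2) takes carnitine into the cell, which mitochondria need to import long-chain fatty acids. Its level in wild type libraries was 32.5, 21.4 and 34.9 CPM, and in knockout libraries 24.7, 21.6 and 31.0 CPM. These groups overlapped, and the difference of -0.18 ± 0.19 (log2 fold change, SE) did not pass (edgeR adjusted p = 0.478). On cholic acid it measured 39.6, 29.7 and 39.3 CPM, all below the 54.6, 46.5 and 59.6 CPM of floxed mice on chow. The log2 fold change of -0.56 ± 0.18 did not pass (edgeR adjusted p = 0.110), but it did in a single fit over all 26 libraries (adjusted p = 0.0421). After hepatectomy it measured 16.9, 12.3 and 9.52 CPM, beside 15.8, 18.9 and 18.9 CPM in sham liver, and the groups overlapped. That difference, -0.47 ± 0.20, missed the threshold (edgeR adjusted p = 0.114) and passed without hepatectomy replicate 1 (-0.71, adjusted p = 0.0147). In hepatocytes the values were 55.3 and 68.0 CPM on chow and 68.2 and 61.4 CPM on the high fat diet, a difference of 0.04 ± 0.12. Its 3 highest group means were those of the fasted groups on chow or high fat diet, from 53.6 to 64.8 CPM, each overlapping its neighbour in that order. Fed whole liver of any group had at most 34.9 CPM in a library, and feeding, tissue and age cannot be told apart in that contrast.

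Slc22a7 (OAT2) carries organic anions across the blood-facing membrane of hepatocytes. It measured 32.7, 35.2 and 56.8 CPM in floxed mice on chow and 1.82, 1.02 and 3.48 CPM on cholic acid. No cholic acid library came near a chow library, and the level fell by 4.28 on the log2 scale (SE 0.44, edgeR adjusted p = 0.00282). In wild type libraries it measured 6.19, 5.06 and 6.35 CPM and in knockout libraries 1.13, 0.265 and 0.532 CPM. The groups were again apart, with a log2 fold change of -3.16 ± 0.38 (edgeR adjusted p = 0.000365), which was -3.83 without knockout replicate 1. After hepatectomy it lay the other way: 112, 99.9 and 155 CPM against 88.9, 92.1 and 97.5 CPM in sham liver. Every hepatectomy library was above every sham library, but the log2 fold change of 0.40 ± 0.16 did not pass (edgeR adjusted p = 0.0883) unless hepatectomy replicate 2 was left out (0.52, adjusted p = 0.0379). In hepatocytes it measured 49.1 and 20.1 CPM on chow and 53.4 and 59.7 CPM on the high fat diet. The 2 chow libraries differed from each other by more than chow replicate 1 differed from the high fat libraries. The log2 fold change of 0.68 ± 0.38 did not pass (edgeR adjusted p = 0.238), and without chow replicate 1 it was 1.47 (adjusted p = 0.000844).

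Slc47a1 (MATE1) is the proton-coupled exporter through which the hepatocyte passes organic cations, metformin among them, into bile. It measured 56.2, 49.0 and 48.4 CPM in wild type and 89.8, 107 and 103 CPM in knockout libraries. All knockout libraries were above all wild type libraries, and the log2 fold change was 0.99 ± 0.10 (edgeR adjusted p = 0.000157). With high fat feeding it measured 184 and 186 CPM, against 93.8 and 117 CPM on chow, a log2 fold change of 0.78 ± 0.12 (edgeR adjusted p = 0.0107). The high fat group had the highest mean of the 10 groups. On cholic acid it measured 37.8, 43.5 and 33.8 CPM, against 80.3, 82.4 and 76.6 CPM on chow. The cholic acid libraries were all lower, by 1.06 ± 0.15 on the log2 scale (log2 fold change -1.06, edgeR adjusted p = 0.0111), and this missed the threshold without cholic acid replicate 1 or 3 (adjusted p = 0.0513 and 0.0527). After hepatectomy it measured 57.4, 64.0 and 80.2 CPM against 88.6, 96.6 and 101 CPM in sham liver. The hepatectomy libraries lay below the sham libraries, with a log2 fold change of -0.51 ± 0.13 (edgeR adjusted p = 0.0205). That call was lost without sham replicate 2, sham replicate 3 or hepatectomy replicate 2 (adjusted p = 0.0721, 0.0833 and 0.0643). With hepatectomy 3 of 6 hepatocyte markers fell (summed 89952 to 102108 CPM against 120315 to 124986 CPM in sham liver). Of the stellate markers 2 of 6 rose (summed 102 to 126 CPM against 82.3 to 99.6 CPM), 1 of 5 cholangiocyte markers rose and 1 of 5 endothelial markers fell. Their part in the changes after hepatectomy was not tested.

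Of the carriers on chromosome 19, Slc22a26, Slc22a27 and Slc22a29 rose in the knockout and on the high fat diet. They encode organic anion transporter-like proteins of the rodent cluster. Slc22a26 measured 0.310, 0.120 and 0.294 CPM in wild type and 18.6, 12.5 and 24.9 CPM in knockout libraries. The wild type values rest on 2 to 6 counts a library and the knockout values on 283 to 610, so the groups were far apart (log2 fold change 6.24 ± 0.39, edgeR adjusted p = 1.02e-05). Slc22a27 measured 0.310, 0.0602 and 0 CPM in wild type, from 6, 1 and 0 counts, and 10.3, 7.06 and 17.3 CPM in knockout libraries. Its log2 fold change was 6.41 ± 0.62 (edgeR adjusted p = 0.000103), and 8.35 without wild type replicate 1, which held most of the wild type reads. Slc22a29 measured 0, 0.181 and 0.176 CPM in wild type and 5.59, 4.02 and 8.38 CPM in knockout libraries (log2 fold change 5.67 ± 0.56, edgeR adjusted p = 0.000115; 5.04 without wild type replicate 1). In all 3 genes knockout replicate 3 was the highest and knockout replicate 2 the lowest of the knockout libraries.

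Slc22a27 on the high fat diet measured 2.48 and 2.17 CPM, from 165 and 142 counts, and on chow 0.0194 and 0.0173 CPM, from 1 count each. The ratio was 127 with a 95% interval of 34.9 to 1056 that covers counting error only, and the fitted log2 fold change was 6.81 ± 0.40 (edgeR adjusted p = 0.00102). Slc22a29 measured 1.32 and 1.21 CPM on the high fat diet and 0.0387 and 0.0346 CPM on chow, from 2 counts each (log2 fold change 5.01 ± 0.40, edgeR adjusted p = 0.00276). For both genes the high fat libraries lay far above the chow libraries and below the knockout libraries. Slc22a26 measured 0.765 and 1.12 CPM on the high fat diet and 0.0387 and 0.242 CPM on chow, from 2 and 14 counts. The groups did not overlap, and the log2 fold change was 2.66 ± 0.63 (edgeR adjusted p = 0.0331). That call was lost without either high fat library (adjusted p = 0.0675 and 0.105) and in the single fit over 26 libraries (adjusted p = 0.0723), and the value was 1.92 without chow replicate 1 and 4.49 without chow replicate 2.

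On cholic acid the same 3 genes showed no such separation. Slc22a26 measured 0.222, 0.407 and 2.18 CPM on chow and 0.404, 2.32 and 0.763 CPM on cholic acid, which overlapped (log2 fold change 0.30 ± 0.88, edgeR adjusted p = 0.866). Slc22a27 measured 0.667, 0.339 and 1.23 CPM on chow and 0.556, 0.971 and 0.286 CPM on cholic acid (-0.31 ± 0.61, edgeR adjusted p = 0.797). Slc22a29 stayed between 0.0678 and 0.324 CPM in all 6 floxed libraries. The sign of both tested differences turned when single libraries were left out. Floxed chow replicate 3, the highest chow library for Slc22a26 and Slc22a27, was the lowest for Slc22a28 (7.18 CPM) and Slc22a30 (137 CPM).

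After hepatectomy Slc22a26 measured 0.940, 0.145 and 1.00 CPM against 0.645, 1.72 and 2.47 CPM in sham liver. The groups overlapped, and the log2 fold change of -1.20 ± 0.65 did not pass (edgeR adjusted p = 0.195). Slc22a27 measured 0.0285, 0.0290 and 0.297 CPM against 0.387, 0.263 and 0.468 CPM, where hepatectomy replicate 3 alone reached the sham range. Its log2 fold change of -1.58 ± 0.74 missed the threshold (edgeR adjusted p = 0.142), and without hepatectomy replicate 3 it was -3.52 (adjusted p = 0.00710), with 1 count in each remaining hepatectomy library. Slc22a29 measured 0.114, 0.116 and 0.379 CPM after hepatectomy and 0.290, 0.292 and 0.234 CPM in sham liver, and was not tested.

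Slc22a28 and Slc22a30, the pair with the most similar coding sequence, both fell in 3 comparisons. Slc22a28 measured 0.671, 0.602 and 0.941 CPM in wild type and 0, 0.0441 and 0.0409 CPM in knockout libraries. The knockout group held 2 counts in all against 39, a ratio of 25.8 with a 95% interval of 6.69 to 221 for counting error (fitted log2 fold change -4.41 ± 0.61, edgeR adjusted p = 0.000749). Slc22a30 measured 45.6, 51.8 and 36.2 CPM in wild type and 12.4, 17.2 and 8.51 CPM in knockout libraries, and these groups were apart too (-1.79 ± 0.24, edgeR adjusted p = 0.000593). On cholic acid Slc22a28 measured 1.26, 0.755 and 2.19 CPM, against 19.6, 18.8 and 7.18 CPM on chow. All cholic acid libraries were below the lowest chow library (log2 fold change -3.42 ± 0.49, edgeR adjusted p = 0.0111). Slc22a30 measured 69.6, 60.9 and 73.8 CPM on cholic acid and 183, 176 and 137 CPM on chow (-1.28 ± 0.18, edgeR adjusted p = 0.00974).

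Slc22a28 in high fat hepatocytes measured 4.26 and 3.34 CPM, below the 14.1 and 11.3 CPM on chow (log2 fold change -1.77 ± 0.19, edgeR adjusted p = 0.00486). Slc22a30 measured 125 and 133 CPM on the high fat diet and 183 and 194 CPM on chow, a smaller separation of -0.58 ± 0.08 (edgeR adjusted p = 0.00994) that missed the threshold in the single fit over 26 libraries (adjusted p = 0.0971). In the 3 comparisons where both fell, the fitted change of Slc22a28 was the larger; that gap between the genes was not tested. After hepatectomy they parted. Slc22a30 measured 122, 131 and 123 CPM against 177, 156 and 171 CPM in sham liver, all lower (-0.42 ± 0.08, edgeR adjusted p = 0.00553; adjusted p = 0.0812 in the single fit). Slc22a28 measured 13.1, 17.3 and 16.9 CPM against 17.8, 16.3 and 15.6 CPM, which overlapped (-0.07 ± 0.13, edgeR adjusted p = 0.710).

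In the knockout and cholic acid experiments the share of reads with more than 1 alignment moved with the group: it was lower in the knockout (above) and on cholic acid, at 16.6% to 17.6% against 23.8% to 25.1% on chow. With high fat feeding it was 19.0% to 19.3% against 23.8% to 24.6%. Its part in the values of the paired genes was not tested. In the knockout, summed cholangiocyte markers were 54.5 to 128 CPM against 26.5 to 36.2 CPM, with 4 of 5 raised. Summed stellate markers were 115 to 140 CPM against 50.8 to 82.0 CPM, with 4 of 6 raised, and 4 of 6 hepatocyte markers fell. Of the endothelial markers 2 of 5 rose, and of the leukocyte markers tested 1 of 5. With high fat feeding 5 of 5 endothelial, 4 of 5 tested stellate and 4 of 5 tested leukocyte markers rose. There 2 of 6 hepatocyte markers fell. Summed leukocyte markers were 39.1 to 42.4 CPM on the high fat diet against 22.3 to 24.4 CPM on chow. On cholic acid 1 of 6 hepatocyte markers fell and 1 of 6 stellate markers rose. The part of these markers in the carriers' changes was not tested.

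In the TCPOBOP experiment Slc22a26 measured 17.8 and 30.6 CPM with TCPOBOP. The library labelled corn oil 1 had 4.80 CPM of it and that labelled corn oil 2 had 2.83 CPM. Both corn oil values lay below both TCPOBOP values, and they were the highest Slc22a26 values of any control group. The log2 fold change was 2.65 ± 0.40 with an unadjusted p of 0.00135 and an edgeR adjusted p of 0.658, in a comparison where 751 of 12785 genes had an unadjusted p under 0.05 and no gene's adjusted p was below 0.345. Without the library labelled corn oil 1 it was 3.09, and without the library labelled corn oil 2 it was 2.32. In both fits the single corn oil library left was assumed to vary like the TCPOBOP libraries. DESeq2's Wald test gave 2.66 (adjusted p = 8.12e-07). That test called 102 of all genes and kept the library labelled corn oil 1 as a control. The other 7 carriers had log2 fold changes from -0.40 ± 0.19 (Slc47a1) to 0.82 ± 0.36 (Slc22a29) and did not pass. Of these, Slc22a5 (0.39, unadjusted p = 0.0286) and Slc22a30 (-0.37, unadjusted p = 0.0401) reached an unadjusted p under 0.05. Slc22a5 measured 27.8 and 27.2 CPM with TCPOBOP, above the 20.1 and 21.6 CPM of the libraries labelled corn oil.

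Whether a carrier changed differently in 2 conditions was tested as the difference between their log2 fold changes, for 6 pairs of comparisons without TCPOBOP. Members low in most groups could pass the filter on low counts here through the groups where they were high. Counts of carriers that differed therefore carry no weight as a share of members. Between knockout and cholic acid, 4 of 8 carriers differed, where 13.9% of all genes were called. Slc47a1 differed by 2.05 ± 0.18 (edgeR adjusted p = 2.69e-05), since it rose in one and fell in the other, and Slc22a26, Slc22a27 and Slc22a29 by 5.94 ± 1.10, 6.73 ± 1.00 and 5.42 ± 1.22. Leaving out floxed chow replicate 1 ended the call of Slc22a29 (5.01, adjusted p = 0.0542), and the value of Slc22a26 was 4.41 without floxed chow replicate 3 and 6.90 without cholic acid replicate 2. Without wild type replicate 1 Slc22a27 differed by 8.63 and Slc22a29 by 4.80, and Slc22a29 by 6.17 without cholic acid replicate 2. Slc22a7 (1.13 ± 0.64), Slc22a28 (-0.96 ± 0.98) and Slc22a30 (-0.50 ± 0.31), which fell in both, did not pass.

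Between high fat diet and cholic acid 4 of 8 differed, where 6.43% of genes were called. Slc22a7 differed by 4.98 ± 0.67 and Slc47a1 by 1.86 ± 0.21 (edgeR adjusted p = 0.00514 and 0.00242). Slc22a27 differed by 7.03 ± 0.98 (adjusted p = 0.00568) and Slc22a29 by 4.73 ± 1.00 (adjusted p = 0.0255). Slc22a27 missed the threshold without chow hepatocyte replicate 1 (adjusted p = 0.0532). Slc22a29 missed it with the replicate number as a block (4.76, adjusted p = 0.0715) and without any 1 of the 4 hepatocyte libraries or floxed chow replicate 1, and was 5.41 without cholic acid replicate 2. Slc22a7 differed by 5.77 without chow hepatocyte replicate 1 and by 4.37 without chow hepatocyte replicate 2. Slc22a28 and Slc22a30 passed only without floxed chow replicate 3, among the libraries left out in turn (1.97 and 0.82, adjusted p = 0.0213 and 0.0164).

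Between knockout and high fat diet 4 of 8 differed, where 16.1% of genes were called. Slc22a7 differed by -3.84 ± 0.60 (edgeR adjusted p = 0.00184), Slc22a26 by 3.62 ± 0.92, Slc22a28 by -2.74 ± 0.68 and Slc22a30 by -1.21 ± 0.32. The last 3 had adjusted p of 0.0234, 0.0217 and 0.0281. Slc22a26 was lost without wild type replicate 2, chow hepatocyte replicate 2 (1.81, adjusted p = 0.552) or high fat replicate 1, and Slc22a28 without knockout replicate 1. Slc22a30 was lost without wild type replicate 1 or 2, knockout replicate 1, either chow library or high fat replicate 2. The value of Slc22a7 was -4.52 without knockout replicate 1 and -4.64 without chow hepatocyte replicate 1, and that of Slc22a26 4.33 without the latter. Slc22a27 (-0.27 ± 0.98), Slc22a29 (0.74 ± 1.33) and Slc47a1 (0.21 ± 0.17), which rose in both, did not pass.

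Between knockout and hepatectomy 7 of 8 carriers differed, all but Slc22a5, where 31.5% of genes were called. The differences (knockout minus hepatectomy) ran from -4.38 ± 0.55 for Slc22a28 to 8.01 ± 1.09 for Slc22a27. Slc22a27 differed by 10.00 without wild type replicate 1 and by 9.92 without hepatectomy replicate 3, Slc22a29 by 5.47 and 6.91 without the same libraries against 6.10 with all, and Slc22a7 by -4.22 without knockout replicate 1 against -3.55. Between hepatectomy and cholic acid 3 of 7 differed, where 13% of genes were called: Slc22a7 by 4.69 ± 0.47, Slc22a28 by 3.35 ± 0.51 and Slc22a30 by 0.86 ± 0.19 (edgeR adjusted p = 0.000124, 0.00156 and 0.0105). Between hepatectomy and high fat diet 5 of 8 differed, where 29.2% of genes were called. Slc22a27 differed by -8.37 ± 1.07, Slc22a29 by -5.41 ± 0.78, Slc22a26 by -3.87 ± 1.11, Slc47a1 by -1.31 ± 0.20 and Slc22a28 by 1.68 ± 0.23. Without hepatectomy replicate 3 Slc22a27 differed by -10.34 and Slc22a29 by -6.23. Slc22a26 was lost without sham replicate 2 or 3, chow hepatocyte replicate 1 (-3.15) or high fat replicate 2, and was -5.69 without chow hepatocyte replicate 2. Slc22a7 passed without chow hepatocyte replicate 1 (-1.09, adjusted p = 0.0234) and Slc22a5 without hepatectomy replicate 1 (-0.77, adjusted p = 0.0219). Slc22a5 did not pass in any of the 6 tests with all libraries.

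The 5 neighbours on chromosome 19 did not move as 1 block. Over 26 libraries, with log2 CPM centred on each experiment's mean, Slc22a27 and Slc22a29 correlated with r = 0.91 and Slc22a28 and Slc22a30 with r = 0.89. Slc22a26 correlated with Slc22a27 (r = 0.87) and Slc22a29 (r = 0.84), although its coding sequence is the least similar. Between these 3 genes and the other pair r was negative for all 6 pairs, from -0.75 (Slc22a26 with Slc22a30, and Slc22a29 with Slc22a30) to -0.64 (Slc22a27 with Slc22a28). In gene order from Slc22a26 to Slc22a30, Slc22a28 lies between Slc22a27 and Slc22a29, which moved the other way. Slc22a7, on chromosome 17, correlated with Slc22a28 (r = 0.82) and Slc22a30 (r = 0.76). Slc47a1 correlated with Slc22a27 (r = 0.71) and had r = -0.02 with Slc22a28. These points share libraries, depth and a few large group differences, and r is given as a description.

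**Figure D3:**
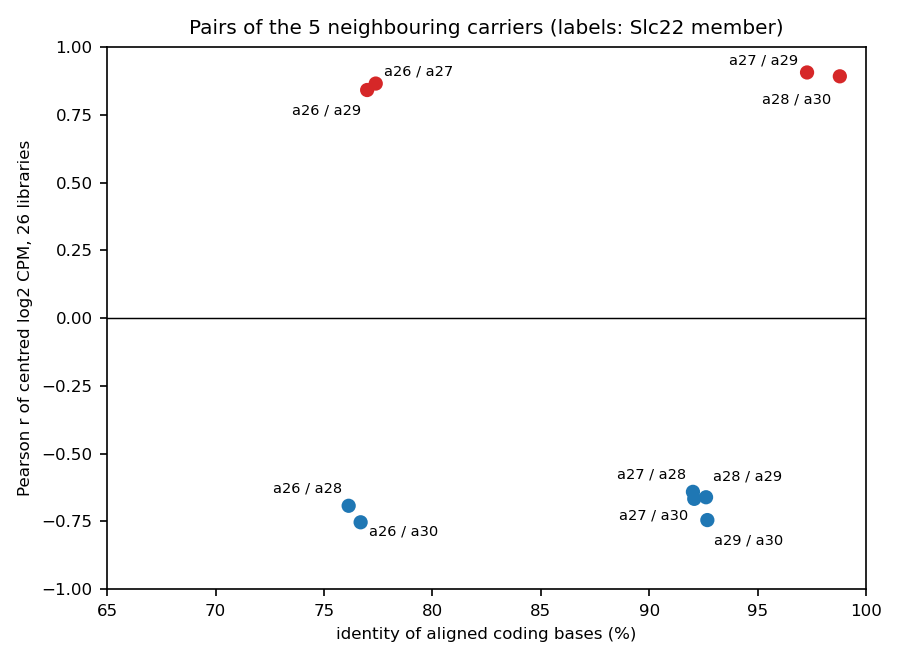
The 10 pairs of the 5 chromosome 19 carriers, by identity of their aligned coding bases (x, %) and by Pearson r of their centred log2 CPM over 26 libraries (y); labels name the Slc22 members. Pairs at 92.0% to 92.7% identity all have a negative r, and Slc22a26, at 76.1% to 77.4%, has a positive r with Slc22a27 and Slc22a29 and a negative r with Slc22a28 and Slc22a30.

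Lists of sex-biased liver genes, none of which holds a carrier described here, are given beside these changes. A link between the lists and the carriers was not tested, and the lists were chosen with earlier results of these data known. Beside these lists and those below, 40.4% of all genes were called in the knockout and 24% on the high fat diet. The share was 4.77% on cholic acid, 30.7% after hepatectomy and 0% with TCPOBOP. These shares belong to the main fits only. Calls over all genes in other fits are given in the last section. In the knockout 24 of 24 male-biased genes tested fell (median log2 fold change -4.85), and 16 of 19 female-biased genes tested rose and 0 fell (median 4.75), beside a median of -0.01 over all genes. Of 20 female-biased genes listed, 19 were tested in the knockout, against 12 on the high fat diet and 10 on cholic acid. Listed genes low in a control could pass the filter on low counts through treated libraries where they were high. Counts and medians of the female-biased list therefore carry no weight for the list as a whole. The male-biased gene with the largest fall was Mup7, a major urinary protein (5462 to 1.41 CPM). On the high fat diet 22 of 24 male-biased genes fell (median -2.35), and 6 of 12 female-biased genes tested rose and 0 fell (median 1.62, against 0.01 over all genes). In the single fit over 26 libraries 14 male-biased genes passed, and without chow hepatocyte replicate 1 it was 10 female-biased genes. On cholic acid 17 of 23 male-biased genes tested fell (median -2.36), with the largest fall in Hsd3b5 (162 to 2.53 CPM), a steroid reductase. That count was 10 without floxed chow replicate 1, 8 without floxed chow replicate 2, and 9, 10 and 10 without cholic acid replicate 1, 2 and 3. There, 1 of 10 female-biased genes tested rose, Cux2, a transcription factor, from 0.651 ± 0.819 to 33.4 ± 24.5 CPM (SD, n = 3), and the other 9 did not pass (median of the list 0.65, against 0.01 over all genes). No female-biased gene passed without floxed chow replicate 1 or 2 or cholic acid replicate 1 or 2, and 2 passed without replicate 3 of either group or with the replicate block. With no filter on low counts, or in the single fit, 6 passed, and 3 by DESeq2's Wald test. Over all genes these fits called 955, 3132 and 1386. After hepatectomy 3 of 23 male-biased genes rose and 10 fell (median -0.41), and 5 of 12 female-biased genes fell and 0 rose (median -0.68, against 0.01 over all genes). The 13 male-biased calls became 8 without sham replicate 2 or 3 and 2 in the single fit. The 5 female-biased calls became 3 without sham replicate 2 or 3, and 8 without sham replicate 1 or by the Wald test. With TCPOBOP 0 of 23 male-biased and 0 of 13 female-biased genes passed. By the Wald test 3 male-biased genes passed there, where 102 of all genes were called.

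**Figure D4:**
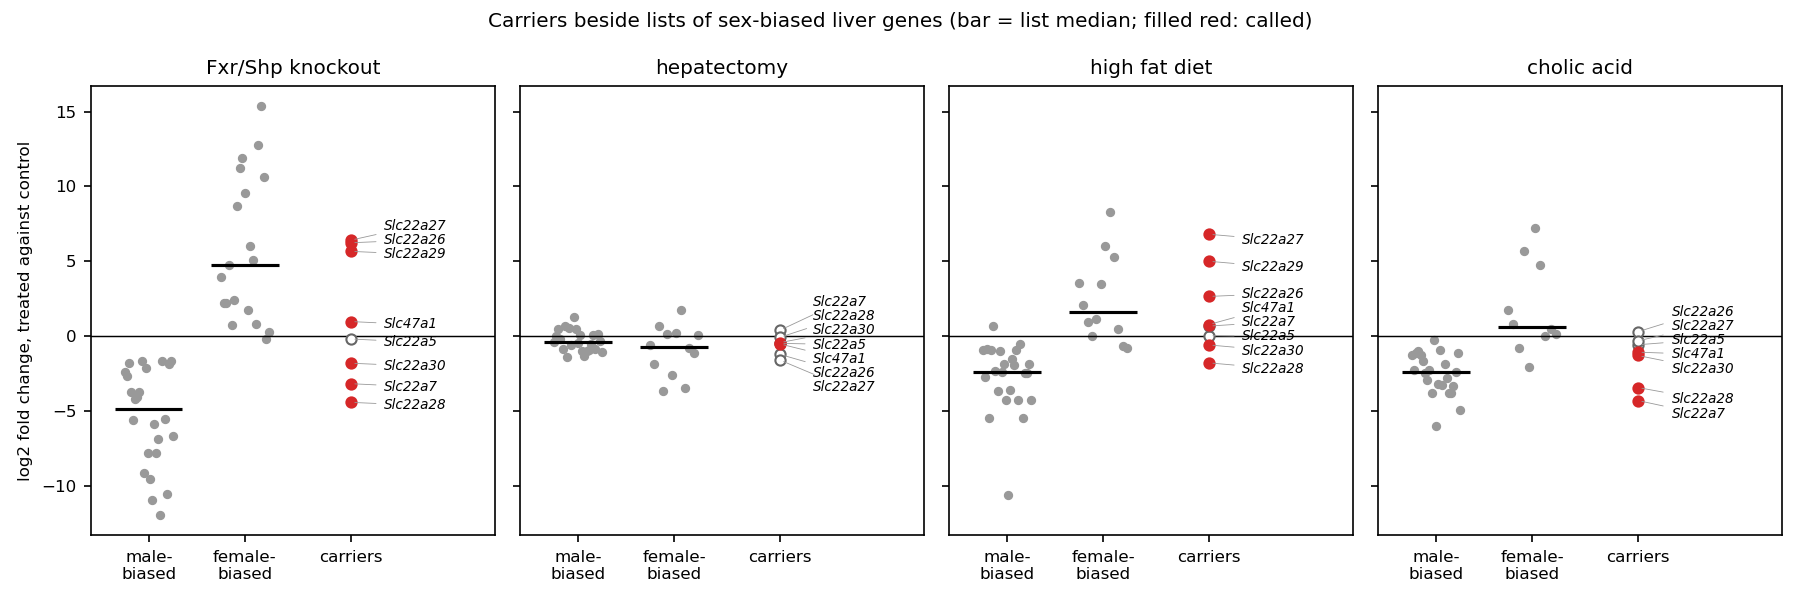
log2 fold change (y) of male-biased and female-biased liver genes (grey, bar = median) beside the carriers (filled red where called, open where not) in 4 comparisons. In the knockout the medians of the lists were -4.85 and 4.75. Female-biased genes could pass the filter on low counts through the knockout libraries, so their median carries no weight for the whole list. Slc22a28 lay at -4.41, Slc22a7 at -3.16, Slc22a30 at -1.79 and Slc22a5 at -0.18. Slc47a1 lay at 0.99, Slc22a29 at 5.67, Slc22a26 at 6.24 and Slc22a27 at 6.41. On cholic acid no carrier was called as raised. A link between the lists and the carriers was not tested.

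Of 19 other Slc22 and Slc47 genes, 6 to 8 were tested in each comparison, and 40.4% of all genes were called in the knockout. In the knockout 3 of 8 rose: Slc22a4, a relative of the carnitine carrier, by 0.58 ± 0.19, Slc22a15 by 0.48 ± 0.15 and Slc22a18 by 0.38 ± 0.10, and 0 fell; 1 passed without wild type replicate 1 or 2 or knockout replicate 1 or 2. With high fat feeding 1 of 8 rose (Slc22a15, 0.49 ± 0.10) and 0 fell; none passed in the single fit, without chow hepatocyte replicate 2 or without high fat replicate 2. Of 7 tested, 0 passed after hepatectomy and 0 on cholic acid, and with TCPOBOP 0 of 6. After hepatectomy 2 passed without hepatectomy replicate 2, and 1 without hepatectomy replicate 3 or sham replicate 1, by the Wald test, in the single fit or with no filter. On cholic acid 1 passed without floxed chow replicate 3 or under the same 3 settings. Over all genes these fits called 1345 without that replicate, and 1386, 3132 and 955 under those settings. The medians of this list were 0.43 in the knockout, -0.19 after hepatectomy, 0.24 on the high fat diet and -0.14 on cholic acid.

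Among the organic anion transporting polypeptides (Slco genes, the other large group of anion carriers in liver), 1 of 6 rose and 3 fell in the knockout. Slco1a4 rose by 1.22 ± 0.12 and Slco1a1 fell from 267 to 0.173 CPM (log2 fold change -10.54). On cholic acid 1 of 6 rose (Slco1a4, 2.65 ± 0.35) and 1 fell (Slco1a1, -3.33 ± 0.64), and the count was 1 without floxed chow replicate 1 or 2 or cholic acid replicate 1. On the high fat diet 3 of 6 fell and 0 rose, with Slco1a1 at -2.48 ± 0.09, and after hepatectomy 1 rose (Slco3a1, 0.75 ± 0.21) and 4 fell (Slco1a1, -0.83 ± 0.08). These 5 calls became 3 without sham replicate 1, and 2 in the single fit or without sham replicate 2, sham replicate 3 or hepatectomy replicate 2. Slco1a1 is also in the male-biased list. With TCPOBOP 0 of 6 passed.

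Genes listed as handling carnitine, the substrate of Slc22a5, were tested as a list of 12, again beside 40.4% of all genes called in the knockout. In the knockout 1 of 9 rose (Aldh9a1, of carnitine synthesis, 0.49 ± 0.09) and 2 fell (Cpt2, which moves acyl groups from carnitine to coenzyme A in mitochondria, -0.55 ± 0.10); DESeq2's Wald test called 5. After hepatectomy 1 of 9 rose (Crot, a peroxisomal acyltransferase, 0.57 ± 0.14) and 4 fell (Slc25a29, -0.97 ± 0.19). Whether Slc25a29 carries carnitine was not examined here. In the single fit, or without sham replicate 2, sham replicate 3 or hepatectomy replicate 2, 3 passed. On cholic acid 1 of 9 fell and 0 rose: Slc25a20, the carnitine carrier of the inner mitochondrial membrane, by 1.05 on the log2 scale (log2 fold change -1.05 ± 0.19). None passed without floxed chow replicate 2 or any 1 of the cholic acid libraries. Without floxed chow replicate 3 or by the Wald test 2 passed, where 1345 and 1386 of all genes were called. In the single fit 4 passed, where 3132 of all genes were called. With high fat feeding 0 of 10 passed and with TCPOBOP 0 of 9. By the Wald test 1 passed with TCPOBOP, where 102 of all genes were called.

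The genes whose centred log2 CPM followed each carrier most closely over 26 libraries were named by Pearson r. Genes with provisional symbols (such as Gm with a number, or Rik) and pseudogenes marked -ps were left out of this ranking. For Slc22a5 they were Slc25a15 (r = 0.82) and Got1 (r = 0.81). For Slc22a7 they were Mup2 and Sult2a8 (r = 0.91 for both), for Slc22a28 Serpina3k and Taf13 (r = 0.95 for both), and for Slc22a30 Cmah and Pdilt (r = 0.97 for both). For Slc22a26 they were Aldh4a1 (r = 0.89) and Serpina6 (r = 0.87), for Slc22a27 Pitrm1 and Lrtm2 (r = 0.92 for both), and for Slc22a29 Cd36 and Cyp2a22 (r = 0.92 for both). For Slc47a1 they were Tmem134 (r = 0.93) and Nsun7 (r = 0.92). Without the TCPOBOP experiment (22 libraries) 1 of the 2 genes changed for Slc22a5, Slc22a26, Slc22a27, Slc22a28 and Slc22a29.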

How the data were processed

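Per the labels' protocols, RNA came from flash-frozen liver or hepatocytes with an RNeasy kit, and libraries from a stranded TruSeq mRNA kit. The authors deposited raw read counts per gene (47643 genes and 5 summary lines). The submitters' processing notes name bcl2fastq 2.17.1.14, Trimmomatic, STAR 2.4.2a, Picard 1.119, HTSeq and GRCm38, without parameters; the use of strand is not given in the sources used here. These lines stayed out of library sizes.

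Each treated group was fitted with its own control in edgeR 4.0.16 (R 4.3.3): filterByExpr (minimum count 10, total 15), TMM, quasi-likelihood F test, Benjamini-Hochberg over all genes tested. Differences between effects were interaction contrasts. SEs were derived from the fold change and the F statistic. CPM uses TMM over all libraries. Intervals are at 95% confidence. Annotation is GENCODE M21, and the file's identifier versions of Slc22a7 and Slc22a29 differ from it. Alternatives were DESeq2 1.42.0, its size factors, other filters, a single fit, a replicate block and leaving out each library. The procedure was tested on simulated counts with 200 genes changed by 1.5 on the log2 scale. It recovered 98% for the knockout, 92.5% for the high fat diet and 78% for knockout minus cholic acid. Genes with low expected counts were not among those changed, and all genes were given the same dispersion. Carriers with very few counts in a group were therefore not covered.

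The members and gene lists were chosen with earlier results of these data known. Named list genes are the called genes with the largest rise and fall with a mean log2 CPM of 1 or more. The 2 closest genes per member by r were also named, among genes without a provisional or pseudogene symbol. Same-numbered libraries of the cholic acid experiment deviated together (r = 0.133, 0.153 and 0.103 over genes, each highest with its own number). They may therefore be pairs, though the labels do not say so. The calls, SEs and adjusted p given for the cholic acid experiment come from fits without pairs, unless a block is named. The blocked fit called the same number of carriers (4).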

Additional observations from a re-analysis of the deposited data

How the results depend on the processing

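With the replicate number as a block, the number of carriers called stayed at 0 with TCPOBOP, 7 in the knockout, 2 after hepatectomy, 6 on the high fat diet and 4 on cholic acid, where 480 genes were called (600 without the block, 404 in both). The block changed 1 call among the carriers, Slc22a29 between high fat diet and cholic acid. In the knockout (r over genes -0.171, -0.0395 and -0.0209) and hepatectomy experiments (-0.0754, 0.0741 and -0.00227) libraries were not closest to their own number. With TCPOBOP r was 0.101 and on the high fat diet 0.105, each highest with its own number. With 2 libraries per group both numbers share 1 value of r, so whether these libraries are pairs cannot be told.

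DESeq2's Wald test called 1 carrier with TCPOBOP, and the single fit over 26 libraries called 1 after hepatectomy. With each library left out in turn, carriers called ranged from 0 to 1 with TCPOBOP, 1 to 3 after hepatectomy, 5 to 7 on the high fat diet and 3 to 4 on cholic acid, and were 7 in the knockout. Differences called ranged from 2 to 4 between knockout and high fat diet and from 2 to 6 between high fat diet and cholic acid. Signs turned, in values that had not passed, when single libraries were left out. Slc22a28 after hepatectomy ranged from -0.1419 to 0.046 (positive without hepatectomy replicate 1). Slc22a5 on the high fat diet ranged from -0.0955 to 0.1855 (negative without replicate 1 of either group). On cholic acid Slc22a26 ranged from -0.6538 to 1.8329 (negative without chow replicate 1 or 2 or cholic acid replicate 2) and Slc22a27 from -0.809 to 0.256 (positive without replicate 3 of either group). Among the differences, Slc22a27 between knockout and high fat diet ranged from -0.8367 to 1.7483 (positive without wild type replicate 1). Slc22a5 between hepatectomy and cholic acid ranged from -0.1384 to 0.2823 (negative without hepatectomy replicate 1 or cholic acid replicate 2). Slc22a7 between hepatectomy and high fat diet ranged from -1.092 to 0.2115 (positive without chow replicate 2). The cause was not tested.

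Calls over all genes moved more: 102 (Wald) and 9 (single fit) with TCPOBOP, 0 to 1233 without single libraries; 2554 to 4217 after hepatectomy; 1735 (single fit) and 1141 to 2644 on the high fat diet; 1386 (Wald), 955 (no filter), 3132 (single fit) and 189 to 1345 on cholic acid. Per kilobase of the longest transcript, Slc22a30 measured 66.7 CPM with corn oil. In the wild type group it measured 17.15 ± 3.02 and Slc47a1 17.14 ± 1.44 by that length (SD). The order of these genes there therefore turned, within their spread. Values of Slc22a26, Slc22a27, Slc22a28 and Slc22a29 under 0.222 CPM can rest on fewer than 3 counts.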
